A study of Sus scrofa with 9 samples.

Results

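The signals of 6 genes of milk fat secretion, PLIN2, PLIN3, CIDEA, RAB18, MFGE8 and VAMP2, were followed in the sow's mammary gland from late pregnancy into lactation. They were chosen by symbol from the array's annotation, and each had 1 probe set, the group of short probes that reads 1 transcript, so 6 of 6765 annotated genes and 6 of 23999 endogenous probe sets were described. All 6 passed the filter on dim signals, which kept 15519 probe sets. The glands came from 6 Large White sows, each biopsied 3 times: in late pregnancy (day -17 from farrowing), just after farrowing (day 1) and in full lactation (day 17). The labels name no treatment and no genetic change. Each array read an equal mix of RNA from 2 sows, so that each of the 3 days had 3 pools, on 9 Affymetrix porcine arrays in all. A biopsy holds several cell types, so fewer cells of a type and less RNA per cell cannot be told apart.

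Milk fat is made between the leaflets of the endoplasmic reticulum and buds off as droplets coated with perilipins. The droplets grow by fusion on their way to the top of the secretory cell, where the plasma membrane wraps and releases them as milk fat globules. Milk proteins leave the same cell in vesicles, which fuse with the plasma membrane through SNARE proteins. PLIN2 (perilipin 2, or adipophilin) and PLIN3 are droplet coat proteins, CIDEA promotes the fusion of droplets, and RAB18 is a small GTPase found on droplets and the endoplasmic reticulum. MFGE8 (lactadherin) lies on the outer face of the milk fat globule and binds phosphatidylserine and integrins, and VAMP2 (synaptobrevin 2) is a vesicle SNARE of exocytosis.

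Of the 6 genes, 5 rose and 1, VAMP2, fell on day 1 against day -17. From day 1 to day 17 the same 5 rose again and VAMP2 did not pass the test. On day 17 against day -17 the folds were 16.9 for CIDEA, 14.3 for MFGE8, 4.62 for PLIN3, 3.26 for PLIN2 and 3.06 for RAB18, while VAMP2 was 1.64-fold lower. These calls were made with limma at an adjusted p under 0.05 over all tested probe sets. It called 24.1% of them for day 1 against day -17 (12.0% higher, 12.1% lower), 13.6% for day 17 against day 1 (7.02% higher, 6.61% lower) and 46.5% for day 17 against day -17 (21.7% higher, 24.8% lower). A rise at both steps was called for 2.17% of the tested probe sets. Without any overlap of pools, 5 of the 6 genes were higher on the later day in each comparison, as were 19.3%, 18.2% and 27.5% of the tested probe sets. VAMP2 was lower without overlap on day 1 and on day 17 against day -17, as were 21.5% and 31.5% of the tested probe sets (16.5% for day 17 against day 1). All 3 days were separate and rising for the same 5 genes and for 5.93% of the tested probe sets. The median log2 difference of the 6 genes was 1.01, 0.95 and 1.96 in these comparisons, beside -0.07, -0.01 and -0.08 over all tested probe sets. All directions are relative to the mean signal of the array, which the deposited scaling had set equal on all 9.

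**Figure D1:**
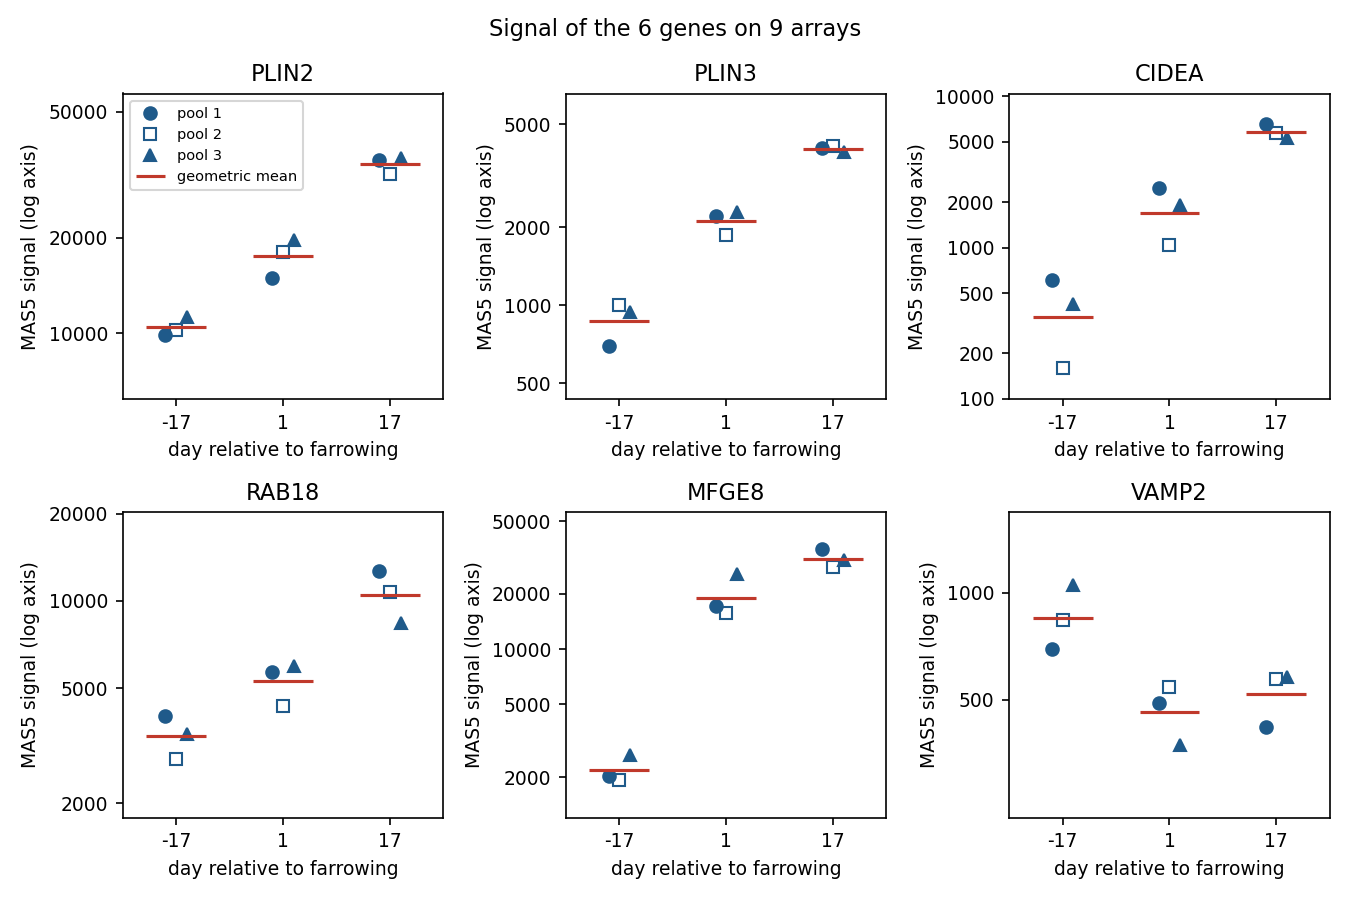
MAS5 signal (log axis, arbitrary units) of each gene against day relative to farrowing; symbols are the 3 pools of a day and red lines their geometric means. The 3 days do not overlap for PLIN2, PLIN3, CIDEA, RAB18 and MFGE8, and VAMP2 is highest on day -17.

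The scale itself differed between days. The 21 probe sets for E. coli transcripts, a mix meant to be added in fixed amount before hybridization, stood 0.43 log2 higher for day 1 against day -17, 0.87 for day 17 against day 1 and 1.30 for day 17 against day -17. Scaling the arrays to them (E. coli scaling) lowers every log2 difference by these amounts, which moved the median of all tested probe sets to -0.49, -0.88 and -1.38. Of the 6 genes, 4 still rose and VAMP2 still fell on day 1 against day -17 and on day 17 against day -17. From day 1 to day 17, 0 rose and VAMP2 alone fell (log2 difference -0.71, adjusted p = 0.0152). At an unadjusted p under 0.05 these counts were the same, 0 and 1. RNA quality was read from the ratio of 3′ to 5′ probe sets, whose log2 value was 2.81 to 2.86, 3.07 to 3.26 and 3.86 to 3.99 for actin on days -17, 1 and 17, and 1.25 to 1.62, 1.17 to 1.21 and 0.82 to 0.98 for GAPDH. The part of either in the members' changes was not tested.

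PLIN2 coats the droplets of milk-secreting cells and takes part in their release at the apical membrane. Its signal was 9909, 10242 and 11275 in the 3 pools of day -17, 14961, 18097 and 19741 on day 1, and 35188, 31718 and 35657 on day 17. The pools of the 3 days did not overlap: the lowest of day 1 was 1.33 times the highest of day -17, and the lowest of day 17 was 1.61 times the highest of day 1. On day 1 it averaged 17599 ± 2429, against 10475 ± 712 on day -17 (SD, n = 3 each), a log2 difference of 0.74 ± 0.12 (standard error in limma, as throughout; adjusted p = 0.00235). On day 17 it averaged 34188 ± 2152, a further 0.97 ± 0.12 (adjusted p = 0.0018). With E. coli scaling the second difference was 0.09 (adjusted p = 0.388). PLIN2 was already bright in late pregnancy, with at least 99% of the endogenous probe sets no brighter on every array, and reached at most 42.6% of the brightest one.

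PLIN3 is a perilipin of most tissues that moves from the cytosol to newly formed droplets. Its signal was 695, 1004 and 947 on day -17, 2224, 1864 and 2293 on day 1, and 4045, 4108 and 3912 on day 17. The days were again separate, and the pools of day 17 were the most alike of its 3 days, with a coefficient of variation of 2.49%, against 10.8% on day 1 and 18.7% on day -17. The log2 difference was 1.28 ± 0.16 for day 1 against day -17 (adjusted p = 0.000522) and 0.92 ± 0.16 for day 17 against day 1 (adjusted p = 0.00592). E. coli scaling left 0.85 of the first and 0.05 of the second (adjusted p = 0.767). By day 17 the signal was 4.62-fold that of day -17 (95% confidence interval 3.63 to 5.86).

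CIDEA enlarges droplets by passing lipid from the smaller to the larger of a touching pair, and mice that lack it secrete less milk fat. Its signal was 608, 159 and 426 on day -17, 2475, 1034 and 1920 on day 1, and 6537, 5761 and 5297 on day 17. Days did not overlap, but pool 2 was the lowest on day -17 and on day 1, and the SD of the log2 signal was 1.00, 0.65 and 0.15 on days -17, 1 and 17. The log2 difference was 2.30 ± 0.45 for day 1 against day -17 (adjusted p = 0.00549) and 1.78 ± 0.45 for day 17 against day 1 (adjusted p = 0.0272). The second call did not hold without pool 2 of day 1 (log2 1.42, adjusted p = 0.0785), pool 3 of day 1 (0.0604), pool 1 of day 17 (0.085), pool 2 of day 17 (0.0748) or pool 3 of day 17 (0.0689), and with E. coli scaling (log2 0.91, adjusted p = 0.0944). The overall rise, 16.9-fold on day 17 against day -17 (95% confidence interval 8.53 to 33.6; log2 4.08 ± 0.45, adjusted p = 8.63e-05), was exceeded by 0.393% of the tested probe sets.

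CIDEA is best known from brown fat, so genes of fat cells were read on the same arrays. Of 8 adipocyte markers, 2 rose and 4 fell on day 17 against day -17, with a median log2 difference of -1.74. Their summed signal, mostly FABP4 and LPL, which were those that rose, was 12480 to 34810, 20170 to 30700 and 30730 to 31050 on days -17, 1 and 17. ADIPOQ (adiponectin), which fat cells secrete, averaged 13.1 ± 8.8 on day 17, against 313 ± 236 on day -17 (SD, n = 3 each). RBP4, the retinol carrier, averaged 7.45 ± 1.10 on day 17, against 650 ± 338 on day -17. ADIPOQ reached the filter level of 82.1 to 94.2 on 2, 1 and 0 of 3 arrays on days -17, 1 and 17, and RBP4 on 3, 1 and 0. LPL, lipoprotein lipase, averaged 12630 on day 17, against 4236 on day -17 (log2 difference 1.76 ± 0.37, limma adjusted p = 0.0037). FABP4, a fatty acid carrier, averaged 15890 on day 17, against 10580 on day -17 (0.66 ± 0.24, adjusted p = 0.0447). The part of fat cells in the change of CIDEA was not tested. No probe set of the arrays had a signal of 0.

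RAB18 was found on lipid droplets in several mammalian cell types, where it takes part in contacts with the endoplasmic reticulum. Its signal was 4009, 2851 and 3466 on day -17, 5699, 4325 and 5942 on day 1, and 12657, 10739 and 8373 on day 17. The first step was small: the lowest pool of day 1 was 1.08 times the highest of day -17. The log2 difference was 0.63 ± 0.19 for day 1 against day -17 (adjusted p = 0.036) and 0.99 ± 0.19 for day 17 against day 1 (adjusted p = 0.00995). The first call did not hold without pool 2 of day -17 (adjusted p = 0.117), pool 3 of day -17 (0.0835), pool 1 of day 1 (0.0654), pool 3 of day 1 (0.121) or pool 2 of day 17 (0.0539), after quantile normalization (0.0534), without an intensity trend (0.0661), with the 6 compared arrays alone (0.0502) and with E. coli scaling (log2 0.20, adjusted p = 0.42). With E. coli scaling the rise over both steps was 0.31 (adjusted p = 0.159) in place of 1.62 ± 0.19 (adjusted p = 0.000128), and that of the second step 0.11 (adjusted p = 0.615).

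MFGE8 marks the finished fat globule and, in mice, helps macrophages and epithelium to take up dying cells. Its signal was 2021, 1918 and 2655 on day -17, 17193, 15664 and 25753 on day 1, and 35038, 28146 and 30612 on day 17. Between day -17 and day 1 the gap was wide, the lowest pool of day 1 standing at 5.9 times the highest of day -17, whereas the lowest of day 17 was 1.09 times the highest of day 1. The log2 difference was 3.13 ± 0.19 for day 1 against day -17 (8.77-fold, adjusted p = 7.36e-06) and 0.71 ± 0.19 for day 17 against day 1 (adjusted p = 0.038). The second call did not hold without pool 1 of day 1 (adjusted p = 0.0762), pool 2 of day 1 (0.108), pool 1 of day 17 (0.122), pool 2 of day 17 (0.0707) or pool 3 of day 17 (0.0957), after median centring (0.0708), after quantile normalization (log2 0.38, 0.181), with no filter (0.0543) and without an intensity trend (0.0724). With E. coli scaling it turned to -0.17 (adjusted p = 0.383).

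VAMP2 went the other way. It sits on secretory vesicles of neurons and of many other secreting cells. Its signal was 694, 841 and 1054 on day -17, 492, 543 and 373 on day 1, and 420, 573 and 581 on day 17. Both lactation days lay wholly below day -17 and overlapped each other. The log2 difference was -0.88 ± 0.21 for day 1 against day -17 (1.83-fold lower, adjusted p = 0.0156) and -0.71 ± 0.21 for day 17 against day -17 (adjusted p = 0.0199), and it was 0.16 ± 0.21 for day 17 against day 1 (95% confidence interval -0.31 to 0.64, adjusted p = 0.644). The first fall did not hold without pool 3 of day -17 (adjusted p = 0.0626) or pool 3 of day 1 (0.062), and that to day 17 without pool 3 of day -17 (0.0807) or pool 1 of day 17 (0.0769). Beside it, 2 of 8 nerve markers passed the filter on dim signals, which SYT1, SYN1 and NEFL, genes of neurons, did not, and the summed signal of that pair, GAP43 and S100B, was 691 to 1364, 213 to 550 and 281 to 419 on days -17, 1 and 17. Both fell on day 17 against day -17, although GAP43 reached the filter level on 3, 2 and 0 of 3 arrays on days -17, 1 and 17. The part of nerve in the change of VAMP2 was not tested.

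The share of each rise reached by day 1 was read as a description, without a test of the shares between genes. By day 1 MFGE8 had covered 81.6% of its log2 rise between day -17 and day 17, PLIN3 58.1%, CIDEA 56.4%, PLIN2 43.4% and RAB18 38.9%. These shares were, with E. coli scaling, 107%, 94.5%, 67.4%, 77.4% and 64.3%, each of a smaller log2 difference. For RAB18 that difference, 0.31, did not pass in limma (adjusted p = 0.159), so its share is of a rise not shown. Whether the second step differed from the first was tested in the same limma fit, a contrast added after the data were seen. For MFGE8 the second step was smaller by 2.43 ± 0.34 log2 (difference -2.43, 95% confidence interval -3.17 to -1.68, adjusted p = 0.00738), a call of its direction made for 3.05% of the tested probe sets. The steps of the other 5 genes were not shown to differ. The interval of the difference was -0.24 to 0.69 for PLIN2, -0.96 to 0.24 for PLIN3, -2.23 to 1.19 for CIDEA, -0.37 to 1.08 for RAB18 and 0.22 to 1.86 for VAMP2 (adjusted p = 0.134 for VAMP2).

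**Figure D2:**
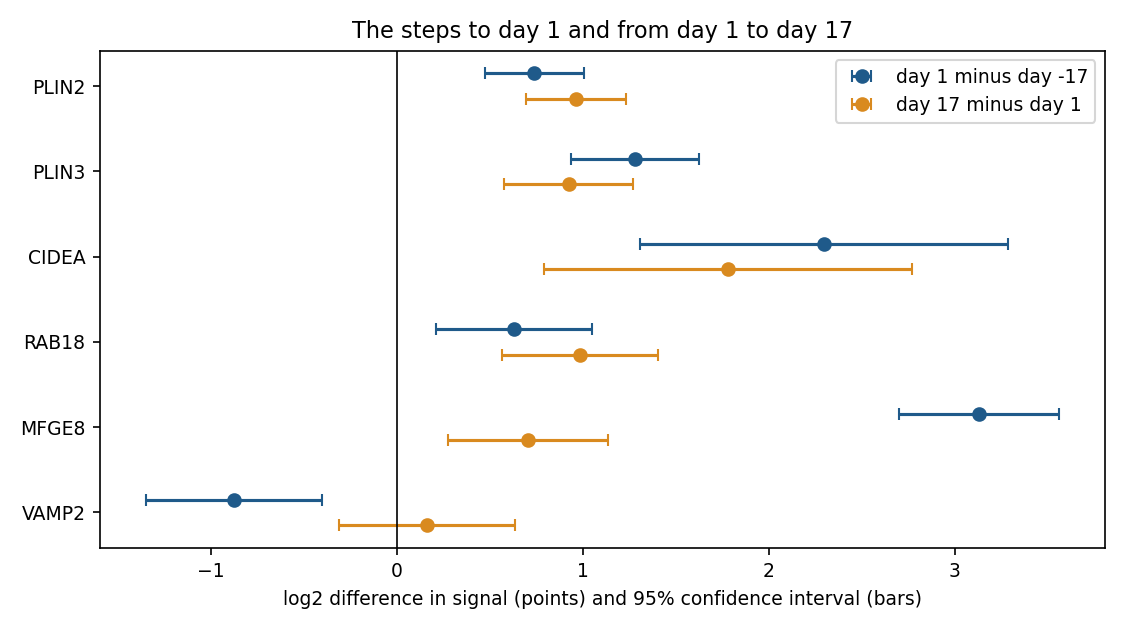
Log2 difference in signal (points) with its 95% confidence interval in limma (bars) for day 1 minus day -17 (blue) and day 17 minus day 1 (orange), n = 3 pools per day. The blue point of MFGE8 lies at 3.13 and its orange one at 0.71, while those of PLIN2 lie at 0.74 and 0.97.

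A ratio of a pair of genes on the same array does not change when the whole array is scaled by a single factor. The ratios of all 15 pairs were therefore compared over the 3 days with an exact permutation test (1680 assignments of 9 arrays to 3 days, smallest possible p = 0.00357). The day differed for 10 of 15 pairs at a p adjusted over the pairs, and for 12 at an unadjusted p under 0.05. Each gene enters several pairs, so the pairs are not independent. Pairs of other probe sets were not tested, so these counts cannot be set against a share over the array. In limma, 46.5% of the tested probe sets were called for day 17 against day -17, so other pairs may differ as often. Levels of different probe sets have no common scale, so their changes carry the information here.

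All 5 ratios of a gene to VAMP2 differed among the days (exact adjusted p of 0.0134 to 0.0201). On both lactation days VAMP2 was lower and the other 5 genes were higher than on day -17, without overlap. These ratios were therefore bound to rise from day -17, and they restate those changes. The log2 ratio of CIDEA to VAMP2 was -1.30 ± 1.11 on day -17, 1.88 ± 0.82 on day 1 and 3.49 ± 0.41 on day 17 (SD, n = 3 each; exact adjusted p = 0.0134), and that of PLIN2 to VAMP2 was 3.62 ± 0.21, 5.24 ± 0.43 and 6.04 ± 0.31 (exact adjusted p = 0.0134). In both, the 3 days were separate and in the order of time.

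CIDEA gained on RAB18 and PLIN2 over the 3 days. Its log2 ratio to RAB18 was -3.30 ± 0.76, -1.63 ± 0.43 and -0.84 ± 0.16 on days -17, 1 and 17, with no overlap between days (exact adjusted p = 0.0134). The ratio of PLIN2 to CIDEA was 4.92 ± 1.01, 3.36 ± 0.77 and 2.55 ± 0.18 (exact adjusted p = 0.0321), overlapping between neighbouring days. PLIN3 to CIDEA passed before but not after adjustment (exact p = 0.0429, adjusted 0.0536). Within each pool number, the ratios of PLIN2 and of PLIN3 to CIDEA were lower at each later day in 3 of 3 pools. An exact permutation of the days within pool numbers, added after the data were seen (216 assignments), gave both ratios, and 5 others, the smallest p it allows, 0.0278. Adjusted over the pairs that is 0.0595, so 0 of 15 pairs passed this permutation and 7 did before adjustment.

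The ratios of PLIN2, PLIN3 and RAB18 to MFGE8 were lower on both lactation days than on day -17. The log2 ratio of PLIN2 to MFGE8 was 2.27 ± 0.17, -0.12 ± 0.30 and 0.13 ± 0.11 on days -17, 1 and 17, the days 1 and 17 overlapping and both below day -17 (exact adjusted p = 0.0201). RAB18 to MFGE8 (exact adjusted p = 0.0201) and PLIN3 to MFGE8 (exact adjusted p = 0.0298) had the same form. CIDEA to MFGE8 did not pass (exact adjusted p = 0.188): the ratio changed by -0.83 on day 1 against day -17 and by 1.07 on day 17 against day 1.

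The log2 ratio of PLIN2 to RAB18 was 1.62 ± 0.28, 1.73 ± 0.34 and 1.71 ± 0.33 on days -17, 1 and 17 (exact adjusted p = 0.896), although a p that misses the threshold does not show that the pair changed alike. PLIN2 to PLIN3 was lower on both lactation days than on day -17 by 0.54 and 0.50 (change -0.54 and -0.50), with no overlap, and passed before but not after adjustment (exact p = 0.0393, adjusted 0.0536). PLIN3 to RAB18 did not pass (exact adjusted p = 0.0701).

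**Figure D3:**
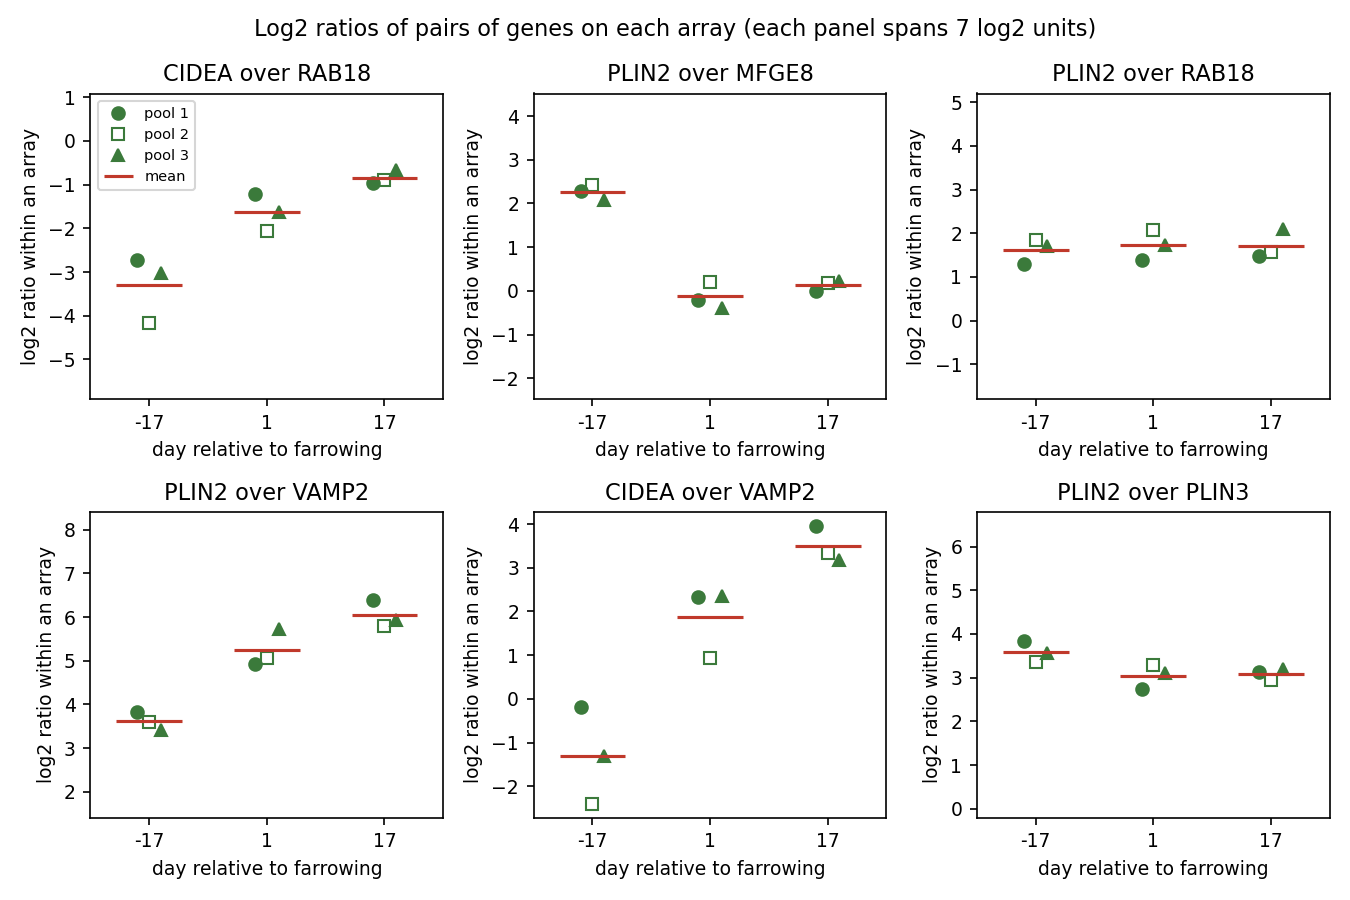
Log2 ratio of a pair of genes on each array against day relative to farrowing; symbols are pools, red lines the means of a day, and every panel spans 7 log2 units. CIDEA over RAB18 and CIDEA and PLIN2 over VAMP2 climb at both steps, PLIN2 over MFGE8 drops by day 1 and stays there, and the means of PLIN2 over RAB18 differ by at most 0.11.

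**Figure D4:**
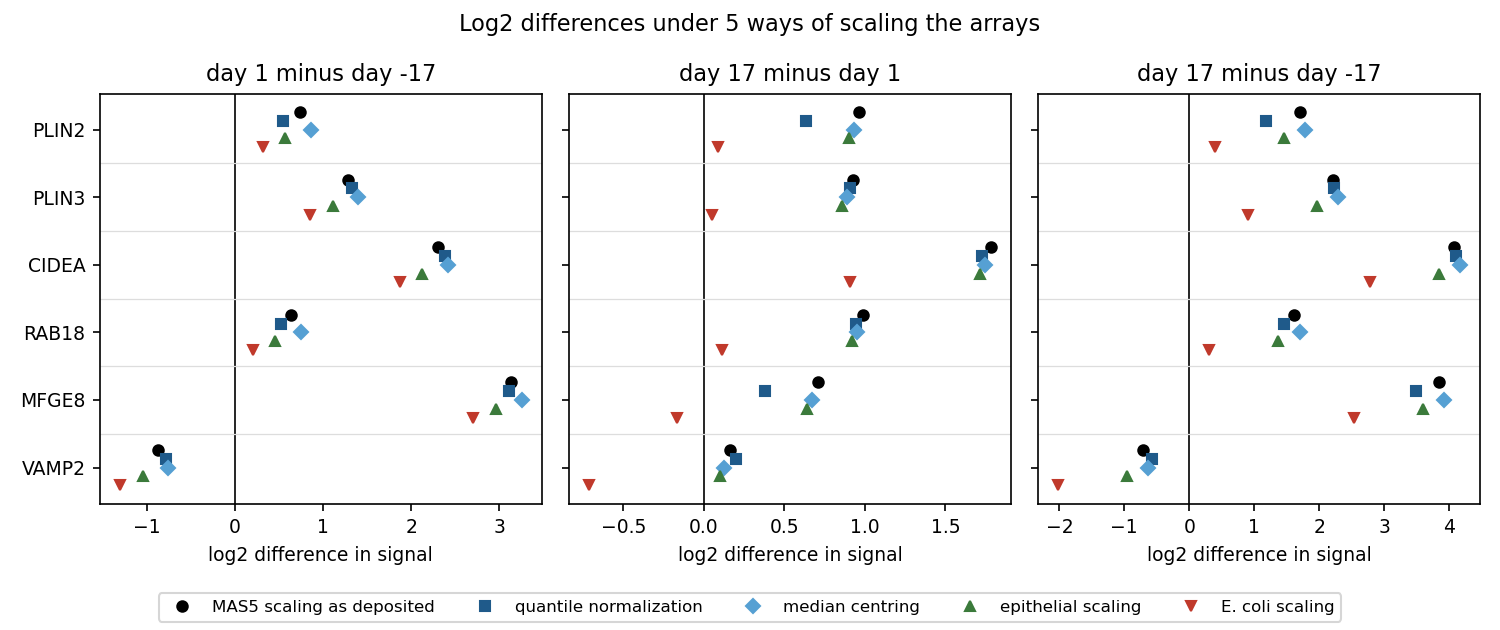
Log2 difference in signal of each gene in the 3 comparisons under 5 ways of scaling the arrays (the deposited MAS5 scaling in black). E. coli scaling (red) puts day 17 minus day 1 at 0.09 for PLIN2, 0.05 for PLIN3, 0.91 for CIDEA, 0.11 for RAB18, -0.17 for MFGE8 and -0.71 for VAMP2.

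For each gene the closest patterns over the 9 arrays were sought among 5517 other named genes, by Pearson's r of the log2 signals. The 9 arrays share 3 days, so a high r can come from the differences between days alone. MFGE8 was nearest to MUC15, a mucin of the fat globule membrane (r = 0.999), then SRM, spermidine synthase, and SELENOF (0.996 each). PLIN2 was nearest to CSN1S1, an alpha casein (0.997), TPT1 (0.996) and the elongation factor listed as EF1ALPHA (0.992). RAB18 was nearest to SDF4 (0.997), PAGR1 (0.983) and ARSA, a lysosomal sulfatase (0.972). PLIN3 was nearest to SFXN1 (0.991), IRAK1 (0.990) and VWA5A (0.988), and CIDEA to TBXAS1, thromboxane synthase (0.987), CREM (0.986) and NPC2, a lysosomal sterol carrier (0.982). The nearest to VAMP2 were TMEM25 (0.971), LSM14A (0.957) and CPNE1 (0.946). Among the 6 genes themselves r lay between 0.857 and 0.962 for the 10 pairs without VAMP2 and between -0.820 and -0.610 for the 5 pairs with it.

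Other genes of the same pathway came from lists of perilipins and CIDE proteins, globule membrane, droplets, lipolysis, SNAREs, Rab proteins and the partners of MFGE8. PLIN1, PLIN4, PLIN5 and CIDEC, and BTN1A1 and XDH, which join PLIN2 in globule release, were not analysed here. CIDEB, the liver relative of CIDEA, rose by 3.01 ± 0.32 on day 1 (adjusted p = 0.000238) and stood 3.48 ± 0.32 above day -17 on day 17 (adjusted p = 3.05e-05), in limma. It was below the filter level on all 3 pools of day -17, and a pseudocount of 16 gave 2.63 and 3.09. Of 6 other globule membrane genes, 4 rose on day 1 and 5 on day 17 against day -17, and none fell, with median log2 differences of 2.14 and 2.87 (4 rose on day 17 and 1 fell with E. coli scaling, 5 and 1 after quantile normalization).

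Among these globule membrane genes, MUC4 rose by 6.79 ± 0.26 and MUC1 by 3.48 ± 0.28 on day 1 against day -17, although MUC4 was too dim on day -17 to reach the filter level (a pseudocount of 16 gave 6.08). On day 17 against day -17, MUC4 rose by 7.65 ± 0.26 and MUC15 by 4.02 ± 0.17. From day 1 to day 17, MUC15 (0.81 ± 0.17) and FABP3, a fatty acid carrier (0.68 ± 0.13), rose and ANXA5, which binds phosphatidylserine as MFGE8 does, fell (-0.74 ± 0.17). The call of MUC15 did not hold without pool 1 of day 17 (adjusted p = 0.0538) and that of ANXA5 without pool 1 of day 17 (0.0598) or pool 3 (0.0651), and with E. coli scaling MUC15 (-0.07) and FABP3 (-0.19) turned direction, as FABP3 did after quantile normalization (-0.07).

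Of 9 tested genes of droplet formation and of the droplet surface, 4 rose on day 1 and 5 on day 17 against day -17, none fell, and the medians were 0.51 and 0.49. AUP1, a droplet protein of ubiquitin transfer, rose by 0.70 ± 0.13 and NSDHL, a sterol enzyme, by 0.80 ± 0.23 on day 1 against day -17, the call of NSDHL lost without pool 1 of day -17 (adjusted p = 0.0535), pool 3 of day -17 (0.1), pool 2 of day 1 (0.0641) or pool 3 of day 1 (0.106). On day 17 against day -17, BSCL2 (seipin, of the droplet budding site) rose by 1.16 ± 0.22 and SPAST (spastin) by 1.02 ± 0.17, but the other probe set of BSCL2 had the opposite sign (0.20 as a mean over both, adjusted p = 0.591). RAB3GAP2, also among the 5 rises, had another probe set of the opposite sign too. From day 1 to day 17, NSDHL (-1.08 ± 0.23) and VCP (-0.57 ± 0.17) fell, with 0 rises (2 at an unadjusted p under 0.05). The call of NSDHL was lost as a mean over its probe sets (-0.35, adjusted p = 0.343), and that of VCP without any 1 of 8 arrays, all but pool 1 of day 1 (0.0552 to 0.143). With E. coli scaling 0 of the 9 rose and 1, 6 and 7 fell in the 3 comparisons.

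Of the lipolysis genes, whose enzymes break droplet fat down, none passed the test as higher in any of the 3 comparisons in limma (0 at an unadjusted p under 0.05). Of 6, 0 changed on day 1 against day -17 in limma (1 fell at an unadjusted p under 0.05), 2 fell on day 17 against day 1 and 3 fell on day 17 against day -17 (2, 3 and 6 fell with E. coli scaling). LIPE, hormone-sensitive lipase, fell by 5.70 ± 1.36 and PNPLA3 by 3.12 ± 1.00 on day 17 against day -17 (log2 -5.70 and -3.12). LIPE was below the filter level on all pools of day 17 (-4.59 with a pseudocount of 16), as ADIPOQ was. PNPLA3 reached that level on 2, 1 and 1 of 3 arrays on days -17, 1 and 17 (-2.32 with a pseudocount of 16), and its call did not hold without pool 1 of day -17 (adjusted p = 0.1), pool 3 of day -17 (0.0573), pool 2 of day 17 (0.0953) or pool 3 of day 17 (0.08). From day 1 to day 17, LIPA, the lysosomal lipase (-1.27 ± 0.29), and ABHD5, the activator of the main triglyceride lipase (-0.64 ± 0.19), fell. Without pool 2 of day 1, pool 1 of day 17 or pool 3 of day 17 this fall of LIPA was lost (adjusted p of 0.0526 to 0.0675), and that of ABHD5 without any 1 of 7 arrays, all but pools 1 and 2 of day -17 (0.069 to 0.131). The third fall on day 17 against day -17 was that of LIPA (-1.88 ± 0.29, adjusted p = 0.00064 in limma). LIPA reached the filter level on every array, and leaving out arrays was not tried for that comparison.

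Of 12 other SNAREs and partners of VAMP2, 3 rose and 0 fell on day 1 against day -17, and 4 rose and 2 fell on day 17 against day -17, with medians of 0.12 and 0.28. VAPA, among the 4 rises on day 17, had another probe set of the opposite sign in that comparison. YKT6 and STX5, SNAREs of traffic between the endoplasmic reticulum and the Golgi, rose by 1.22 ± 0.17 and 0.82 ± 0.18 on day 1, and by 1.06 ± 0.17 and 1.04 ± 0.18 on day 17, against day -17. VAMP7, a lysosomal relative of VAMP2 (-0.88 ± 0.33), and STX4, a SNARE of the plasma membrane (-0.84 ± 0.19), fell on day 17 against day -17. The call of VAMP7 did not hold without any 1 of 8 arrays, all but pool 3 of day -17 (adjusted p of 0.0515 to 0.132). With E. coli scaling 1 rose and 4 fell on day 1 and 0 rose and 9 fell on day 17 against day -17, with YKT6 at -0.24 and STX5 at -0.27 on day 17.

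Of 13 other Rab and ARF proteins, 4 rose and 0 fell on day 1 and 8 rose and 1 fell on day 17 against day -17, with medians of 0.38 and 0.58 (3 and 1, then 1 and 9, with E. coli scaling). RAB1A, of traffic from the endoplasmic reticulum, rose by 1.35 ± 0.14 and 1.67 ± 0.14, and RAB3D, of secretory vesicles, by 1.30 ± 0.16 and 1.52 ± 0.16 in these comparisons. RAB7A, of late endosomes, fell on day 17 against day -17 (-0.35 ± 0.12, not held without pool 1 or 3 of day -17 or any pool of day 17, adjusted p of 0.0736 to 0.113). From day 1 to day 17 none rose (2 at an unadjusted p under 0.05) and ARF1, of Golgi coats, fell (-0.47 ± 0.14, not held without any 1 of 8 arrays, all but pool 1 of day 1, 0.0523 to 0.148).

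Of 7 genes of MFGE8 receptors and cell clearance, 0 rose and 1 fell on day 1 against day -17, and 1 rose and 3 fell on day 17 against day -17, with medians of -0.54 and -0.45 (0 fell on day 1 or day 17 after quantile normalization, and 7 fell on day 17 with E. coli scaling). ITGB3, an integrin chain of the receptor that MFGE8 binds, fell on day 17 against day -17 (log2 -1.5 ± 0.54; not held without any 1 of 7 arrays, all but pools 1 and 2 of day 1, adjusted p of 0.0516 to 0.139). GAS6, another bridge to dying cells, fell (-1.69 ± 0.60, not held without pool 1 or 3 of day -17 or any pool of day 17, 0.0634 to 0.13) and its receptor TYRO3 rose (0.83 ± 0.19, but -0.47 with E. coli scaling). ELMO1, of engulfment, fell on day 1 (-0.62 ± 0.20, not held without any 1 of 7 arrays, all but pool 1 of day 1 and pool 2 of day 17, 0.0517 to 0.143, and in a fit with pool number as a fixed block, 0.0601). Of 4 macrophage markers tested, 1 rose and 0 fell on day 17 against day -17, and their summed signal was 3264 to 4348, 3784 to 7137 and 2728 to 3503 on days -17, 1 and 17.

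**Figure D5:**
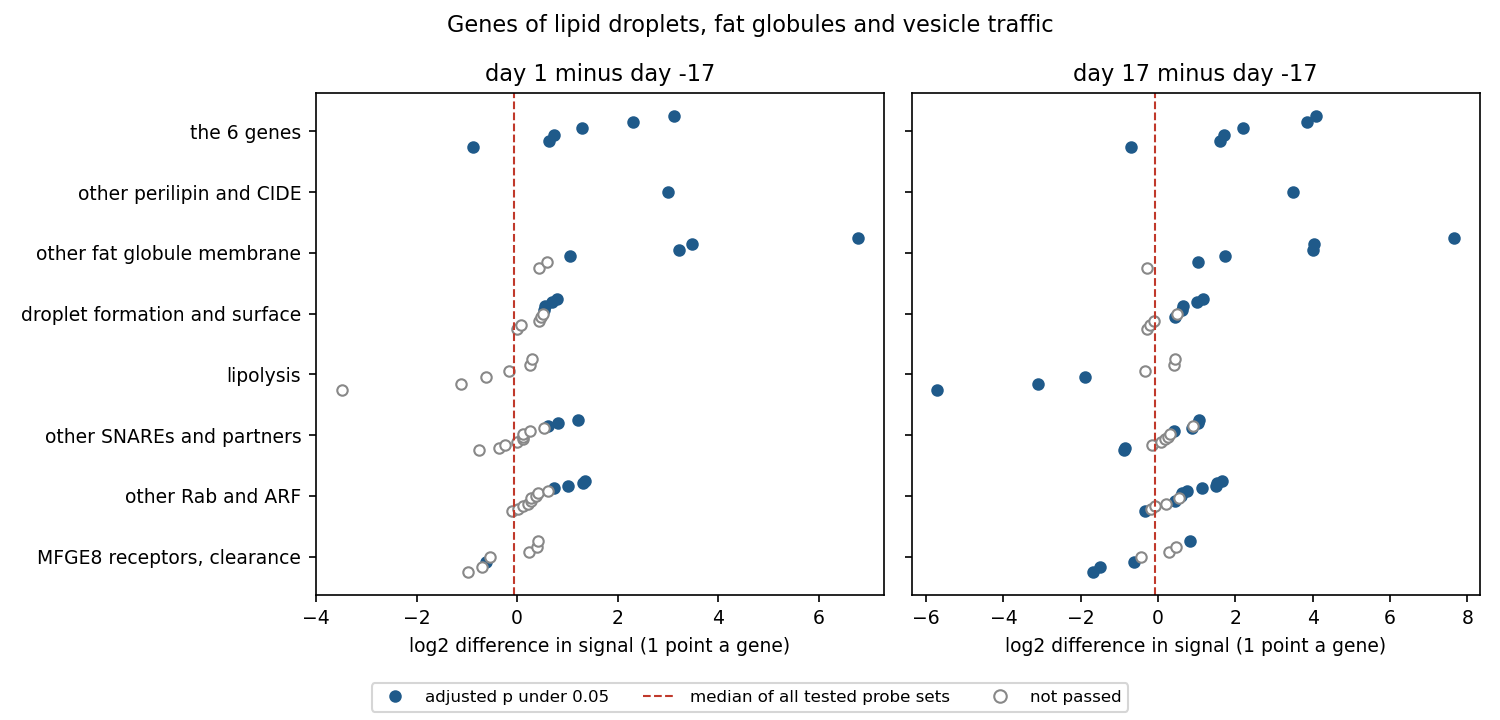
Log2 difference in signal of each tested gene (1 point) by pathway list for day 1 minus day -17 and day 17 minus day -17; filled points passed an adjusted p of 0.05 in limma, and the dashed line is the median of all tested probe sets. The 4 filled points of the globule membrane list on day 1 lie at 1.06 and above, whereas the 3 of lipolysis on day 17 lie at -1.88 and below.

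The genes that define a lactating gland were bright: the summed signal of CSN2, CSN1S1, LALBA and WAP, the milk proteins, was 31820 to 40820, 127700 to 177300 and 270000 to 273900 on days -17, 1 and 17. Of 7 luminal epithelial markers, 3 rose and 2 fell on day 17 against day -17, with a median of 0.31, and their mean log2 signal was 0.18 higher on day 1 and 0.24 higher on day 17 than on day -17. That mean was lowest in pool 1 of day -17 (10.56) and of day 1 (10.78), against 11.40 to 11.85 in the other arrays. Scaling to these markers, an alternative added after the data were seen, left the 5 rises of day 17 against day -17 (log2 1.47 for PLIN2, 1.97 for PLIN3, 3.84 for CIDEA, 1.37 for RAB18 and 3.60 for MFGE8) and called CIDEA and MFGE8 alone on day 1. On day 1 against day -17 the log2 differences were then 0.57 for PLIN2, 1.11 for PLIN3 and 0.45 for RAB18, which lost their calls, 2.13 for CIDEA and 2.96 for MFGE8. It left 0 of the 6 called on day 17 against day 1 in limma (3 at an unadjusted p under 0.05), with log2 differences of 0.90 for PLIN2, 0.86 for PLIN3, 1.72 for CIDEA, 0.92 for RAB18 and 0.64 for MFGE8. VAMP2 stood at -1.05 on day 1 (adjusted p = 0.276) and at -0.95 on day 17 (0.168) against day -17, and the difference between the steps of MFGE8 at -2.32 (0.349), so that these calls were lost while the values moved by at most 0.24. Of 6 myoepithelial and smooth muscle markers 4 rose and 0 fell on day 17 against day -17, and of 5 endothelial markers 0 rose and 1 fell. ACTG2, among those 4 rises, had another probe set of the opposite sign in that comparison.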

How the data were processed

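The deposited table held linear signal intensities of 9 arrays. The authors made it with MAS5, per the submitters' processing notes, version not given in the sources used here. Its trimmed mean was 500.1 on every array, so levels are relative to the array. Of 24123 probe sets, 124 controls were left out. By GEO's platform annotation 10099 had 1 gene symbol, 198 several and 13826 none, and only those with 1 were named. Here log2 was taken of the deposited intensity, and endogenous probe sets that reached the 40th percentile on at least 3 arrays were tested.

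The fit was limma 3.58.1 in R 4.3.3 with an intensity trend over all 9 arrays, day as the only term and Benjamini-Hochberg adjustment over all tested probe sets, and it was tested on simulated data. The simulated noise was independent between arrays, so that test could not bear on shared sows or on differences in scaling. A gene's probe set was the one with the highest mean signal. Named genes were the 6 members and, per pathway list and comparison, the 2 called with the largest rise and the 2 with the largest fall. Members and lists were chosen with earlier results of these data known. Pools of the same day hold different pairs of sows as far as the labels tell, so p-values measure the spread between pools, and 3 pools a day limit the precision. The same 6 sows were biopsied on all 3 days. Neither the fit nor the permutation of 9 arrays took this into account, and both treated the arrays of different days as independent. Spearman correlations within a day were 0.954 to 0.976.

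The labels give pools of the 3 days the same numbers without saying that they share sows. Same-numbered pools deviated together on day 1 and day -17, with correlations of 0.235 to 0.506, against -0.387 to 0.113 for different numbers. They also did on day 17 and day -17 (0.105 to 0.13, against -0.0739 to -0.0421 for different numbers). Those of day 17 and day 1 (0.096 to 0.107, against -0.0768 to -0.0268 for different numbers) straddled the limit of 0.1 set for pairing. Deviations from the mean of a day cancel over its pools, so the values for different numbers depend on those for the same number. The pool number as a block, other scalings and filters, a pseudocount of 16 and leaving out each array were tried as alternatives.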

Additional observations from a re-analysis of the deposited data

How the results depend on the processing

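Over the 3 comparisons of the named genes and the difference between the 2 steps of the 6 members, 1184 values were recomputed. Of these, 996 kept their direction and side of the threshold, 173 lost their call, 0 gained one, 10 turned direction with a call in at least 1 of both settings, and 5 turned direction with a call in neither. The difference between the steps was called for MFGE8 alone, so the other 5 members had no such call to lose. With E. coli scaling the log2 difference of day 17 against day 1 turned to -0.17 for MFGE8, -0.71 for VAMP2, -0.068 for MUC15 and -0.19 for FABP3, and that of day 17 against day -17 to -0.15 for BSCL2, -0.29 for SPAST, -0.24 for YKT6, -0.27 for STX5 and -0.47 for TYRO3. Quantile normalization turned FABP3 to -0.07 on day 17 against day 1. The cause was not tested. Of the 6 members, 1 was called on day 17 against day 1 with E. coli scaling, in place of 5. Epithelial scaling, added after the data were seen, called 2 on day 1 against day -17 and 0 on day 17 against day 1, and it carries the spread of its 7 markers between pools: the members' differences moved by at most 0.24 log2. A fold of at least 2 left 3 and 1 called in these comparisons. Without 1 array, 4 to 6 were called on day 1 against day -17, 3 to 5 on day 17 against day 1 (3 without day 1 pool 2 or any pool of day 17) and 5 to 6 on day 17 against day -17. Of the pair ratios 8 to 11 were called without 1 array, 13 after quantile normalization and 0 with the replicate block, whose smallest possible p is 0.0278 (7 pairs had it).

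Over all probe sets, 3736 changed on day 1 against day -17, 2116 on day 17 against day 1, 7223 on day 17 against day -17 and 7028 in the F test over 3 days. E. coli scaling gave 7085 (814 higher, 6271 lower), 11114 (112 and 11002), 13156 (471 and 12685) and 13280. Epithelial scaling gave 408, 150, 2443 and 1778, and a fold of at least 2 gave 1592, 820 and 3809, by construction fewer. Without 1 array the counts were 2110 to 4424, 1049 to 2109, 5887 to 7639 and 5410 to 7719. The replicate block changed no call of the 6 members (6, 5 and 6 called) and gave 4496, 2743 and 7825 probe sets. Averaging probe sets could not alter the members, which have 1 each.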
